A study of Mus musculus with 24 samples.

Results

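Neurotrophins, their receptors and closely linked genes were followed in the hippocampus of aged mice. The 8 genes were taken by symbol from the gene column of the hippocampal tables, and all 8 were found among the 24411 genes listed. They are the ligands Bdnf and Ntf3, the receptors Ntrk2, Ntrk3, Ngfr and Sort1, the receptor-trafficking gene Tmem108 and the synaptic gene Lgi1. RNA sequencing of whole hippocampus covered 6 mice given a young plasma preparation, 6 given a young platelet fraction and 5 given saline. Isolated hippocampal microglia came from 4 libraries of mice given PF4, a chemokine released by platelets, and 3 of mice given saline. All were male C57/Bl6 mice of 20 months that received 8 intravenous injections of 100 μl over 24 days, and were perfused with buffered saline before dissection. Plasma and platelets came from donors of 3 months, and PF4 was injected at 5 μg per ml. Microglia were collected on CD11b beads after removal of myelin. The comparisons ask whether blood fractions from young mice, or PF4, alter the aged hippocampus and its microglia. The study names Bdnf, Ntf3 and Tmem108 as markers of synaptic plasticity in hippocampi of PF4-treated mice. It also names Lgi1 among such markers, with its expression abrogated under PF4 when the receptor CXCR3 was lost. Those hippocampi were not analysed here.

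Neurotrophins are secreted growth factors that keep neurons alive and adjust the strength of their synapses. Each mature factor binds a Trk receptor tyrosine kinase, TrkB for BDNF and TrkC for NT-3, whereas the uncleaved precursors bind p75NTR together with sortilin and can trigger the opposite response. In the hippocampus BDNF is made by excitatory neurons, rises with activity and is needed for lasting potentiation of synapses.

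Values are normalized counts, that is, the reads of a gene scaled by the size factor of its library. The hippocampal libraries held 6140510 to 10522699 counted reads and the microglia libraries 19855188 to 36342162. Along the first principal component (25.1% of the variance), 5 hippocampal libraries lay far from the other 12 and are called the 5 displaced libraries. These were young plasma mice 7147 and 7150, young platelet mouse 7148, and saline mice 7146 and 7152. Results that rest on them are given with and without them. The markers that define each labelled tissue were present. The 8 dentate granule cell markers summed to 2143 to 6043 normalized counts over the 17 hippocampi, and 6 microglia markers summed to 653831 to 970905 in the isolated microglia. Markers of other cells were also present there. Choroid plexus markers summed to 516273 and 356993 in PF4 libraries 2 and 4 and 202717 in saline library 2. Oligodendrocyte markers summed to 197213 in PF4 library 4.

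RefSeq promoter windows of GRCm38.p6, the assembly of mm10, were available for 6 of the 8 genes, with 7 windows for Bdnf alone. The 250 bases before 3 of these start sites are shown, since Ngfr and Lgi1 changed in hippocampus and Bdnf is the gene of the family best known for activity-dependent transcription. Capitals in the Ngfr (chr11:95587699-95587948, minus strand) and Lgi1 (chr19:38264437-38264686, plus strand) sequences mark the GC box GGGCGG on either strand. Capitals in the Bdnf sequence (chr2:109692186-109692435, plus strand) mark TCACGTCA, a variant of the cAMP response element.
Ngfr: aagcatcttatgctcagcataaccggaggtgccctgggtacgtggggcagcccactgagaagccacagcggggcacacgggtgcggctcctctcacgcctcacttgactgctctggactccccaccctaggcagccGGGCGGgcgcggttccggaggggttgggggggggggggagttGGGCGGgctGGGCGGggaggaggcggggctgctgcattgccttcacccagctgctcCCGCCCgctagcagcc
Lgi1: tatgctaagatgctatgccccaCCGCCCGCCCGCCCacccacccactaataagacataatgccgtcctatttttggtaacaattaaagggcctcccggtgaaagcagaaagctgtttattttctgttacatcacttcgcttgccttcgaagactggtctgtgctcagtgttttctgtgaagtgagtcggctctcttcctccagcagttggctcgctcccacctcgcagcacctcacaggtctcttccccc
Bdnf: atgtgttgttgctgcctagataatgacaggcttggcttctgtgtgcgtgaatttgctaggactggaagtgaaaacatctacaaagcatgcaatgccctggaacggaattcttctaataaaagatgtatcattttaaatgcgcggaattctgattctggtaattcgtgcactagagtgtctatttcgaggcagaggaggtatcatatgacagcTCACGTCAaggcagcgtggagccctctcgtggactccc
The cAMP response element is the DNA site of CREB, the factor that couples synaptic activity to transcription, and this Bdnf promoter is a textbook target of it. TCACGTCA, read on both strands, was found in 1 of the 14 windows of these genes, starting 38 bases before the Bdnf start, and in 0.350% of the 32851 windows of all genes. The palindromic element TGACGTCA was in 0 of the 14 windows and in 1.55% of all windows. GGGCGG was in 7 of the 14 windows, spread over 5 genes, and in 32.7% of all windows. The Ngfr window held 4 matches, and the Lgi1 window 3 that overlap each other. These matches describe letters in a window and no binding was measured.

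The members were expressed at levels more than 10-fold apart once the length of their exons was taken into account. Ntrk2, which encodes TrkB and lies on chromosome 13 from 58806472 to 59133970, was the highest at 271.5 ± 29.1 normalized counts per kb of exon (SD, n = 17 libraries). Sort1 followed at 142 ± 27.2 and Lgi1 at 124 ± 22.2, and Sort1 was above Lgi1 in 15 of 17 libraries. Bdnf stood at 85.2 ± 17.1 normalized counts per kb, above Ntf3 in 17 of 17 libraries. The lower end held Ntf3 at 39.8 ± 11.9, Tmem108 at 31.1 ± 6.33, Ngfr at 24.7 ± 8.18 and Ntrk3 at 23.8 ± 2.78 normalized counts per kb. Ngfr exceeded Ntrk3 in only 9 of 17 libraries, so the order of these 2 was not separated by their spread. Exon lengths join all annotated transcripts, including truncated TrkB and TrkC forms without a kinase, and the values do not separate the forms.

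Ngfr and Ntf3 were the most thinly sequenced members. Ngfr was covered by 46 to 135 reads per library and Ntf3 by 38 to 130. Counting error was 11.0% for Ngfr and 12.0% for Ntf3, below their spread between libraries of 26.5% and 27.0% within groups. For Ntrk2, at 4220 to 7368 reads, counting error was 1.38% and the spread 11.3%. Genes on the opposite strand overlap 6 of the members in the annotation, all but Ngfr and Ntf3. Of those overlapping genes 1 is listed in the tables, across Tmem108. The sources differ on whether the libraries kept strand, so reads of such pairs may not be told apart.

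Each treatment was compared with saline by limma on log2(normalized count + 1), at the unadjusted p of 0.05 used in the study. With young plasma, 2 of the 8 members passed, against 3.35% of the 13594 genes tested. These were Ngfr upward (1.85% of genes) and Lgi1 downward (1.51%). With young platelets, 2 of 8 passed, against 3.87% of 13603 genes, Ngfr upward (2.41% of genes) and Ntrk3 downward (1.46%). The treated and saline mice overlapped for all 8 members, while they did not for 0.191% of genes with young plasma and 0.257% with young platelets. Each member was also tested alone by a two-sided permutation test, exact over all arrangements of the mice, whose smallest possible p is 0.00216 for 6 mice against 5. At a Benjamini-Hochberg adjusted p of 0.05, limma called 0 genes with young plasma (456 at the unadjusted threshold) and 0 with young platelets (527). On the recovered reads edgeR called 0 genes at adjusted p in either comparison, and DESeq2 called 0 with young plasma and 11 with young platelets. The smallest adjusted p of any member was 0.998 by limma, so every change below is one without correction for the number of genes. The median log2 difference of the 8 members was -0.13 with young plasma, against -0.01 for all genes, and -0.14 with young platelets, against 0.00 for all genes. Both comparisons use the same 5 saline mice.

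**Figure D1:**
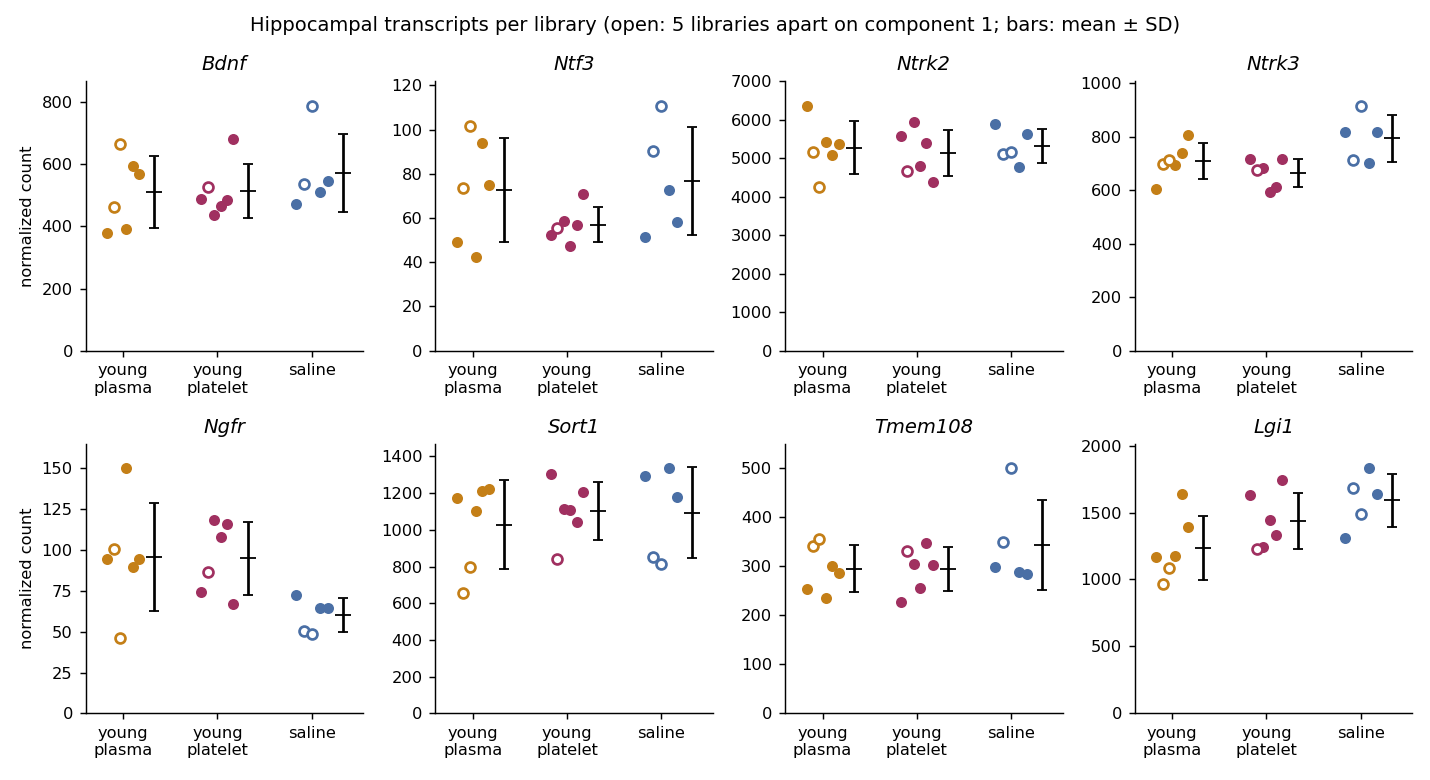
Normalized counts of the 8 genes in each hippocampal library, by treatment, with the mean and SD beside the points; open points are the 5 displaced libraries. Ngfr sits at 46.2 to 150.1 in young plasma and 66.8 to 118 in young platelet hippocampi, against 48.8 to 72.7 in saline hippocampi.

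Ngfr was the member that rose with both treatments. It encodes p75NTR, the low-affinity receptor shared by all neurotrophins, and lies on chromosome 11 from 95568818 to 95587698 on the minus strand. With young plasma it ranged over 46.2, 94.7 and 150.1 normalized counts (lowest, median, highest of 6), against 72.7, 50.7, 48.8, 64.8 and 64.4 in saline mice 7143, 7146, 7152, 7155 and 7596. Young plasma mice exceeded every saline mouse in 5 of 6 cases, and the sixth, 7150, was below all of them. The difference was 0.60 ± 0.24 (log2, SE), a rise to 1.52-fold. It passed by limma at an unadjusted p of 0.0281 (adjusted p = 1.00) and missed the threshold by the exact test (p = 0.0606). With young platelets Ngfr ranged over 66.8, 97.0 and 118 normalized counts, again above every saline mouse in 5 of 6. The difference was 0.63 ± 0.19 (log2, SE), or 1.55-fold, at an unadjusted limma p of 0.00456 (adjusted p = 0.998) and an exact p = 0.0108.

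The young plasma call for Ngfr depended on single mice. By limma, the young plasma call was lost without saline mouse 7146 (0.54, exact p = 0.124), without saline mouse 7152 (0.53, exact p = 0.133) and without young plasma mouse 7156 (0.46, exact p = 0.119). The young platelet call was kept by limma with each mouse left out in turn. Without the 5 displaced libraries the young platelet difference was 0.48 and no longer passed (exact p = 0.0536), while the young plasma difference was 0.63 (exact p = 0.0286, the smallest that 4 young plasma mice against 3 saline mice allow).

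Markers of oligodendrocytes were higher with both treatments as well. All 8 of 8 passed upward with young plasma (median log2 difference 0.50), against 1.85% of genes, and 8 of 8 with young platelets (median 0.62), against 2.41%. Their summed level was 51731 to 115796 normalized counts with young plasma, against 40183 to 79042 with saline. It was 63990 to 103008 with young platelets, against 40351 to 79432 with saline on that table's scale. None of the 8 markers was at 0. On the platelet scale, displaced saline mice 7146 and 7152 had the lowest saline sums, 40351 and 48618.5 normalized counts. The other saline mice had 60938.5 to 79432. Displaced treated mice 7147, 7148 and 7150 had 64413, 99923 and 116391. The markers were not tested without the displaced libraries. The markers of oligodendrocyte precursors had 0 of 4 called in both comparisons, with medians of 0.22 and 0.17. From mouse to mouse within treatments, the oligodendrocyte sum and Ngfr had a Pearson r of -0.058 (log2 values centred on each group's mean, 17 libraries, a description). The groups differed, with r at 0.94 in 5 saline, -0.40 in 6 young plasma and -0.039 in 6 young platelet mice. Young plasma mouse 7150 had the highest sum of its group and the lowest Ngfr, and young platelet mouse 7151 the lowest sum of its group and the highest Ngfr. Saline mouse 7143 had the highest sum and the highest Ngfr of its group. The part of these cells in the Ngfr result was not tested. In bulk tissue, more cells of a type and more RNA per cell cannot be told apart.

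Neither ligand passed the threshold with either treatment. Bdnf, on chromosome 2 from 109674700 to 109727043, ranged over 379, 516 and 664 normalized counts (lowest, median, highest) with young plasma and 438, 488 and 683 with young platelets. Saline mice had 472, 537, 789, 510 and 548. Of 6 mice each, 3 with young plasma and 2 with young platelets were below every saline mouse, and the rest overlapped. The differences were -0.17 ± 0.17 for young plasma (log2, SE; 95% interval -0.54 to 0.20; exact p = 0.394) and -0.14 ± 0.14 for young platelets (-0.44 to 0.16; exact p = 0.405). Saline mouse 7152 carried much of both values. Without it the differences were -0.048 with young plasma (exact p = 0.790) and -0.018 with young platelets (exact p = 0.905), and without the 5 displaced libraries -0.10 (exact p = 0.600) and -0.0091 (exact p = 0.964). In the full set, a rise in Bdnf of more than about 0.20 on the log2 scale lay outside both intervals.

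Ntf3 encodes NT-3 and lies on chromosome 6 from 126101412 to 126166772. It had 56.9 ± 7.88 normalized counts with young platelets and 76.7 ± 24.2 with saline (SD, n = 6 and 5). The young platelet mice spanned 47.3 to 70.7, and the saline mice read 51.5, 90.3, 110.8, 72.6 and 58.3. All 6 young platelet mice were below the saline mean and 1 was below every saline mouse. The difference of -0.38 ± 0.20 (log2, SE; 95% interval -0.81 to 0.05) missed the threshold by limma and by the exact test (p = 0.0866). On the recovered reads Ntf3 passed by edgeR (-0.44, unadjusted p of 0.0493, adjusted p = 0.998) and by DESeq2 (-0.43, unadjusted p of 0.0497, adjusted p = 1.00). It passed by limma without saline mouse 7143 (-0.51, exact p = 0.0143) or 7596 (-0.46, exact p = 0.0667), and without mouse 7152 the difference was -0.23 (exact p = 0.210). Without the 5 displaced libraries, which include the saline mice with the highest Ntf3 (7146 and 7152), it was -0.085 (exact p = 0.589). With young plasma Ntf3 spanned 42.2 to 101.5 normalized counts, and the difference was -0.09 ± 0.26 (log2, SE; exact p = 0.745), or 0.036 without the 5 displaced libraries.

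Granule cell markers of the dentate gyrus, a site of Bdnf and Ntf3 transcripts in the rodent hippocampus, had lower median values with both treatments. With young plasma 4 of 8 passed downward (median log2 difference -0.46), against 1.51% of genes. The 8 markers summed to 2132 to 4334 normalized counts against 2714 to 6003 with saline. With young platelets 3 of 8 passed downward (median -0.35), against 1.46% of genes, with sums of 2601 to 4012 against 2727 to 6043 with saline. None of the 8 was at 0, and their part in the ligand values was not tested. Displaced saline mice 7146 and 7152 had the highest saline sums, 4659 and 6043 normalized counts, and the other saline mice had 2727 to 4396. Displaced treated mice 7147, 7148 and 7150 had 3348, 3730 and 3729. These markers were not tested without the displaced libraries. The sum was highest in saline mouse 7152 at 6043 normalized counts, the mouse with the highest Bdnf and Ntf3. In young plasma mice both ligands were highest in 7150, and the sum in 7159 at 4356. In young platelet mice both ligands were highest in 7595, and the sum in 7145 at 4012. CA1 pyramidal markers had 0 of 5 called in both comparisons (medians -0.17 with young plasma and -0.21 with young platelets). CA2 and CA3 markers had 1 of 6 called upward with young plasma (median -0.09), against 1.85% of genes. With young platelets they had 0 of 6 called (median 0.04). Interneuron markers had 0 of 6 called in both comparisons (medians 0.14 and 0.08).

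Of the Trk receptors, Ntrk3 passed with young platelets and Ntrk2 with neither treatment, and the difference between the genes was not tested. Ntrk3, on chromosome 7 from 78179986 to 78581034, encodes TrkC, the receptor of NT-3, and fell with young platelets. It ranged over 592, 678 and 719 normalized counts (lowest, median, highest) in those mice, against 820, 715, 917, 701 and 816 with saline. Of the 6 young platelet mice 4 were below every saline mouse, and all 6 were below the saline mean. Ntrk3 fell by 0.25 on the log2 scale (SE 0.09; unadjusted limma p of 0.0160, adjusted p = 0.998; exact p = 0.0173). The limma call was lost without saline mouse 7152 (-0.20, exact p = 0.0429) and without the 5 displaced libraries (-0.23, exact p = 0.0893). With young plasma the range was 604, 705 and 808, and the difference -0.16 ± 0.09 (log2, SE; exact p = 0.0887).

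Ntrk2 averaged 5280 ± 685 normalized counts with young plasma, 5135 ± 599 with young platelets and 5313 ± 444 with saline (SD, n = 6, 6 and 5). The difference was -0.02 (95% interval -0.22 to 0.19; exact p = 0.890) for young plasma and -0.05 (-0.24 to 0.14; exact p = 0.550) for young platelets. Saline mice read 5881, 5119, 5151, 4772 and 5643, within the span of 4242 to 6370 in young plasma mice.

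Sort1, on chromosome 3 from 108283974 to 108361519, encodes sortilin, which binds precursor forms of neurotrophins next to p75NTR and sorts proteins within the cell. It averaged 1028 ± 242 normalized counts with young plasma, 1101 ± 157 with young platelets and 1094 ± 245 with saline (SD, n = 6, 6 and 5). The differences were -0.10 ± 0.19 (log2, SE; exact p = 0.649) and 0.03 ± 0.15 (exact p = 0.881). With the 5 displaced libraries left out they were -0.10 for young plasma (exact p = 0.171) and -0.14 for young platelets (exact p = 0.179). In the 5 displaced libraries Sort1 was 654 to 851 normalized counts, and in the other 12 it was 1040 to 1335, with no overlap. The component was computed over all genes, Sort1 included, so this split is a description. How many other genes split this way was not counted.

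Tmem108, on chromosome 9 from 103482936 to 103761900, encodes retrolinkin, a membrane protein that takes part in the trafficking of activated TrkB in neurons. It averaged 295 ± 47.5 normalized counts with young plasma, 294 ± 45.6 with young platelets and 343 ± 91.0 with saline (SD, n = 6, 6 and 5). The saline mean rested on mouse 7152, which read 499, while the other 4 saline mice read 283 to 348. The differences were -0.20 ± 0.16 for both treatments (log2, SE; exact p = 0.297 for young plasma and 0.303 for young platelets). Without mouse 7152 they were -0.055 with young plasma (exact p = 0.686) and -0.059 with young platelets (exact p = 0.690). They were -0.12 with young plasma (exact p = 0.371) and -0.029 with young platelets (exact p = 0.875) once the 5 displaced libraries were left out.

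Lgi1 fell with young plasma. It lies on chromosome 19 from 38264687 to 38308939 and encodes a secreted protein that bridges pre- and postsynaptic ADAM receptors and sets excitatory transmission. Young plasma mice ranged over 970, 1172 and 1639 normalized counts (lowest, median, highest), against 1308, 1686, 1490, 1830 and 1636 with saline. Of the 6 young plasma mice 4 were below every saline mouse. Lgi1 fell by 0.37 on the log2 scale (SE 0.13; unadjusted limma p of 0.0134, adjusted p = 1.00; exact p = 0.0346), to 0.772-fold. The limma call held with each mouse left out in turn and was lost without the 5 displaced libraries (-0.25, exact p = 0.257). With young platelets Lgi1 ranged over 1231, 1387 and 1745, and the difference was -0.15 ± 0.11 (log2, SE; exact p = 0.232).

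**Figure D2:**
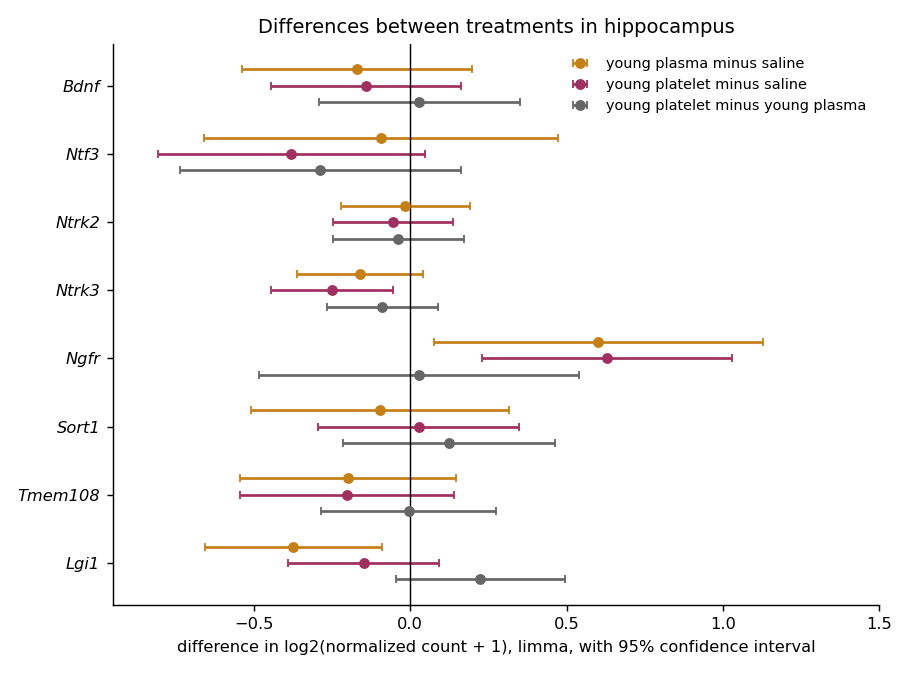
Differences in log2(normalized count + 1) with 95% confidence intervals from limma for the 3 hippocampal comparisons of each gene. The intervals of Ngfr lie above 0 for both treatments against saline, and those of Lgi1 (young plasma) and Ntrk3 (young platelet) lie below 0.

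The 2 treatments were then compared directly, after the tables were put on one scale through the shared saline libraries. None of the 8 members passed, against 1.90% of 13730 genes, with 0 genes past adjusted p by limma, edgeR and DESeq2. For Ngfr the difference of young platelet minus young plasma was 0.03 (log2, 95% interval -0.48 to 0.54; exact p = 0.926), an interval that leaves room for a change in either direction. For Lgi1 it was 0.22 (-0.05 to 0.50; exact p = 0.130), for Ntrk3 -0.09 (-0.27 to 0.09; exact p = 0.232) and for Ntf3 -0.29 (-0.74 to 0.16; exact p = 0.217). A gene that passed with one treatment only, such as Lgi1 or Ntrk3, was therefore not shown to respond differently to the other. Without the 5 displaced libraries the difference was -0.16 for Ngfr, 0.14 for Lgi1 and -0.12 for Ntf3. Lgi1 passed without young plasma mouse 7159 (0.31, exact p = 0.0325), and Ntf3 without young plasma mouse 7156 (-0.43, exact p = 0.0498).

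Other genes of the pathway were mostly below the threshold. Among 15 adaptors that carry the Trk signal, Frs3, a docking protein of activated Trk receptors, rose with both treatments. It averaged 83.0 ± 14.0 normalized counts with young plasma, 81.1 ± 20.8 with young platelets and 57.6 ± 7.65 with saline (SD, n = 6, 6 and 5). The differences from saline were 0.51 ± 0.15 with young plasma (log2, SE; unadjusted limma p of 0.00479, adjusted p = 1.00; exact p = 0.00649) and 0.45 ± 0.19 with young platelets (unadjusted limma p of 0.0328, adjusted p = 0.998; exact p = 0.0563). Gab1, a scaffold for PI3-kinase downstream of receptor kinases, rose with young platelets by 0.47 ± 0.13 (log2, SE; unadjusted limma p of 0.00249, adjusted p = 0.998; exact p = 0.00866), to 206 ± 30.7 normalized counts against 148 ± 11.6 with saline. The remaining 14 adaptors with young plasma and 13 with young platelets did not pass. Thus 1 of 15 was called with young plasma, against 3.35% of all genes, and 2 of 15 with young platelets, against 3.87%.

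None of the 9 partners of p75NTR, the 5 other receptors that were measured well enough to test (Sorcs1, Sorcs2, Sorcs3, Sorl1 and Nradd), the 9 tested enzymes of precursor cleavage or the 3 other genes of TrkB trafficking passed in either direction with either treatment. The 11 genes that BDNF or neuronal activity induces, Arc, Fos and Npas4 among them, had 0 called, with median log2 differences of -0.08 with young plasma and -0.07 with young platelets. Over all genes the shares called were 3.35% with young plasma and 3.87% with young platelets. The ligand gene Ntf5 did not exceed 3.30 normalized counts in any library and was below the filter. Of the 8 relatives and partners of LGI1, 0 passed against saline. Between the treatments 1 of 8 passed, against 1.90% of genes. This was Lgi4, lower with young platelets than with young plasma (-0.25 ± 0.11, unadjusted limma p of 0.0421, adjusted p = 1.00; exact p = 0.0693).

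Some pairs of members varied together from mouse to mouse within treatments. Over the 17 libraries, with each group centred on its mean log2 value, 15 of the 28 pairs had a Pearson r between -0.4 and 0.4, Ntrk3 with Sort1 (-0.0040) and Ngfr with Lgi1 (-0.19) among them. Bdnf and Ntf3 had an r of 0.85, and Bdnf and Ngfr one of -0.74. Ntf3 with Tmem108 gave 0.76, Ntf3 with Ngfr -0.71 and Sort1 with Tmem108 -0.74. Bdnf and Ntf3 thus tended to be high in the mice where Ngfr was low. These values are descriptions over libraries that share tissue dissection and the first component, and they carry no test.

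**Figure D3:**
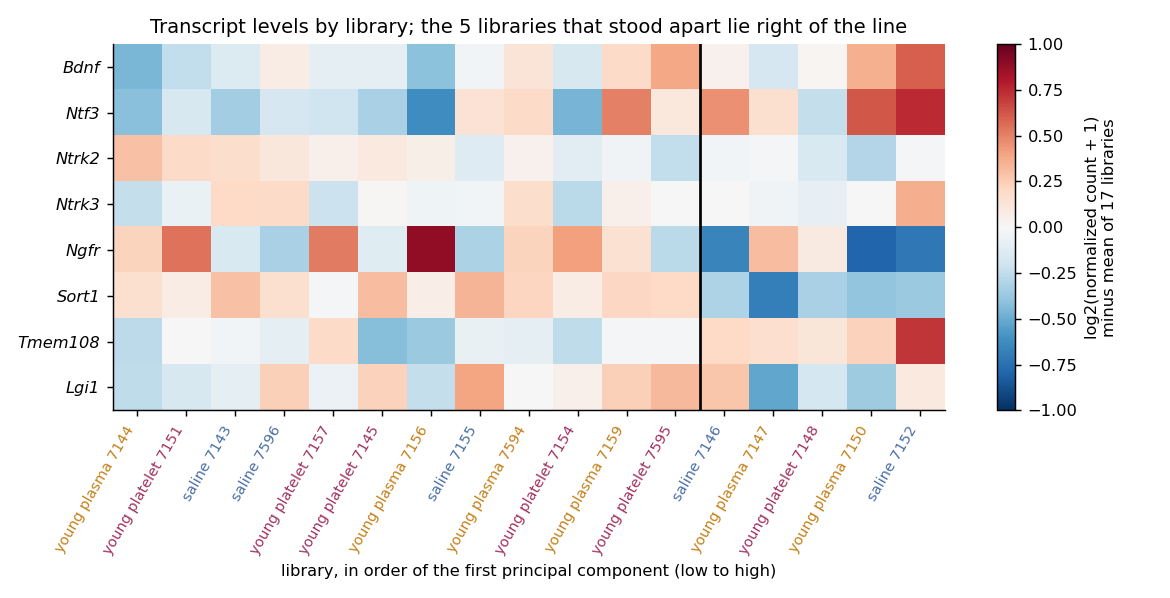
Levels of the 8 genes in 17 hippocampal libraries, as log2(normalized count + 1) minus the mean of each gene, with libraries in order of the first principal component and the 5 displaced libraries right of the line. Sort1 is 654 to 851 normalized counts right of the line and 1040 to 1335 left of it. The component was computed over all genes, Sort1 included, and how many other genes split this way was not counted.

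Part of this variation lay along the first component. Sort1 had an r of -0.87 with it, Tmem108 0.73, Ntf3 0.65, Ntrk2 -0.61, Bdnf 0.58 and Ngfr -0.53, over 17 libraries. Of the 5 displaced libraries, 3 had less Ngfr and 3 had more Tmem108 than any of the other 12, and 2 had more Ntf3. The component that set these libraries apart was computed over all genes, so such splits are a description. The share of all genes that split this way was not counted. Lgi1 and Ntrk3 followed the component less, at -0.25 and 0.25.

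Among 10639 genes with a mean of at least 50 normalized counts, the genes most like each member were listed by the same group-centred r over 17 libraries. Bdnf was most like Klf13 (r = 0.95), Nrn1 (0.94) and Prkce (0.91). Nrn1 encodes neuritin, a small membrane protein known as induced by neurotrophins and activity. Ntf3 was most like Synpr (0.89), Ythdf2 (0.88) and Bzw2 (0.87), and Synpr encodes the synaptic vesicle protein synaptoporin. Ntrk2 was most like Pcx (0.94), which encodes pyruvate carboxylase, an enzyme of astrocytes in the brain, and like Mdga2 (0.92) and Peg3 (0.90). For Ngfr these genes were Pnpla6 (0.93), Wdr6 (0.91) and Endov (0.88). For Lgi1 they were Actr2 (0.93), Nckap1 (0.90) and Nfib (0.90), of which Actr2 and Nckap1 act in the assembly of branched actin. For Sort1 they were Spty2d1 (0.99), Gtf2a1 (0.98) and Kdm6a (0.98), for Tmem108 C2cd2l (0.93), Ehd1 (0.90) and Sf3b4 (0.88), and for Ntrk3 Ftsj3 (0.90), Tox4 (0.88) and Rasgrf1 (0.85).

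In isolated microglia most members were near 0. Only Ntrk2, Sort1 and Lgi1 reached 10 normalized counts in at least 3 of the 7 libraries, and 0 of these 3 passed the unadjusted p of 0.01 used in the study for microglia, against 0.389% of 11320 genes (44 genes, with 391 at an unadjusted p under 0.05). By limma and edgeR 0 genes passed adjusted p, and by DESeq2 41. Sort1 was in all libraries, at 2058, 1689, 838.5 and 1409 normalized counts with PF4 and 711, 1548 and 1327 with saline. The groups overlapped, with a difference of 0.33 ± 0.43 (log2, SE; exact p = 0.429, where 35 arrangements allow no p below 0.0286).

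Ntrk2 was at 1254, 3178, 234.5 and 2700 normalized counts with PF4, against 2921, 1015 and 119 with saline, a difference of 0.83 ± 1.14 (log2, SE; exact p = 0.543). It was highest in PF4 libraries 2 and 4 and saline library 2. These were also the libraries with the highest summed level of 7 choroid plexus markers, at 516273 and 356993 normalized counts in PF4 libraries 2 and 4 and 202717 in saline library 2, against 679 to 903 in the other 4 libraries. In the 4 libraries low in these markers Ntrk2 was 1254 and 234.5 with PF4 and 1015 and 119 with saline. Astrocyte markers also summed highest in PF4 library 2 (16724) and saline library 2 (15719), but only to 6043 in PF4 library 4. In the 4 libraries low in choroid plexus markers the astrocyte sums were 10108 and 9597 with PF4 and 9838 and 5741 with saline. The part of choroid plexus cells or astrocytes in the Ntrk2 values was not tested. Lgi1 was 0, 162, 17.2 and 0 with PF4 and 415, 0 and 0.714 with saline, with a difference of -0.28 ± 2.81 (log2, SE; exact p = 0.914).

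The other 5 members were seen in 1 to 3 microglia libraries each. Bdnf was found in PF4 library 2 alone, at 91.6 normalized counts, and Ntf3 in saline library 2 alone, at 96.8. Ngfr was 849 in PF4 library 2, 1.52 in PF4 library 1 and 0 elsewhere. Tmem108 was 629 in PF4 library 2, 189 in PF4 library 4, 0.817 in PF4 library 3 and 0 elsewhere, so all 3 saline libraries were at 0. Ntrk3 was 200 in saline library 3, 0.761 in PF4 library 1 and 0 elsewhere. PF4 library 2 also had the highest sum of 7 meningeal fibroblast markers, 3454 normalized counts against 4.94 to 2510 in the other 6. The 2510 was in PF4 library 4, where Bdnf and Ngfr were 0. PF4 library 2 was highest as well for CA2 and CA3 pyramidal (2498), choroid plexus (516273), astrocyte (16724) and ependymal (740) markers. It was lowest for dentate granule, CA1 pyramidal and oligodendrocyte markers. PF4 library 4 had the highest oligodendrocyte sum (197213). The part of any of these cells in the values of the 5 members was not tested.

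**Figure D4:**
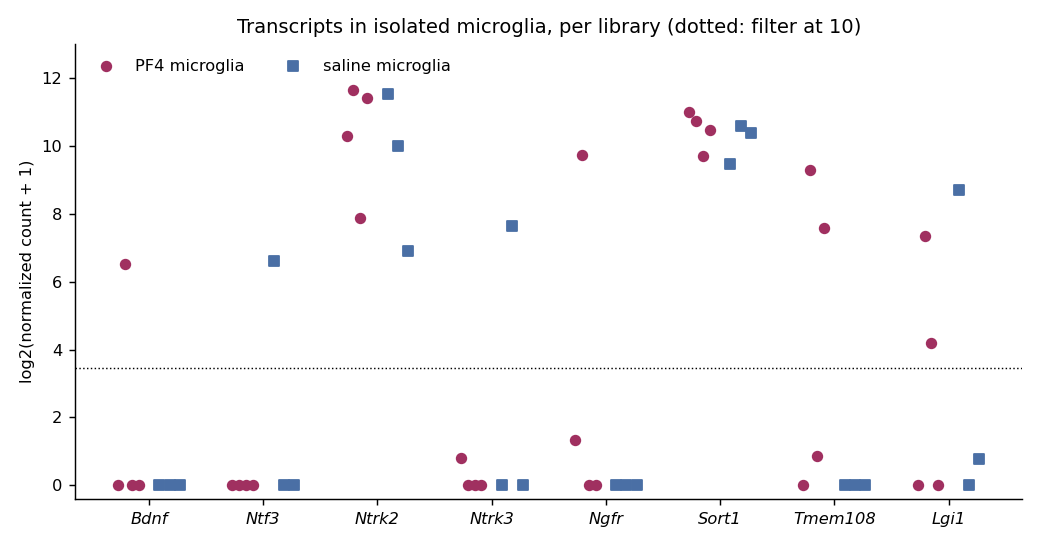
Log2(normalized count + 1) of the 8 genes in each microglia library, PF4 libraries as circles and saline libraries as squares; the dotted line is the filter at 10 normalized counts. Ntrk2 and Sort1 are above the line in all 7 libraries, and Bdnf, Ntf3, Ngfr and Ntrk3 are above it in 1 library each.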

How the data were processed

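Poly(A) RNA of 17 whole hippocampi and 7 libraries of isolated hippocampal microglia was sequenced, and samples were grouped by their deposited labels. Per the labels and methods, the authors used STAR for alignment (mm10), RSEM for gene counts and DESeq2 for normalization. The methods name a modified Smart-Seq2 protocol and the labels a strand-specific kit, a conflict that could not be settled. The signal they deposited is a gene's count after division by a size factor, the normalized count. In every library 100% of values were whole multiples of 1 read, within 0.01 of a read, so reads were recovered. The tables also hold the authors' fold changes and p-values, which were not used.

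Per-mouse values are on the scale of the platelet table, and young plasma values were multiplied by 1.01 through the 5 saline libraries that both tables hold. Tests ran within each table. Genes with 10 or more normalized counts in at least 5 hippocampal or 3 microglia libraries were fitted with limma 3.58.1 (R 4.3.3) with a variance trend on log2(normalized count + 1), for the 2 groups compared. This scale understates changes of low genes. P-values are two-sided and measure the spread between these samples. Also tried were a pseudocount of 0.5 or 5, a low-value filter at 50 or none, scaling by TMM, edgeR 4.0.16 and DESeq2 1.42.0 on recovered reads, all hippocampal groups in 1 fit, each library left out in turn and a replicate block in microglia. Leaving out the 5 displaced libraries and the two-sided exact permutation tests of single genes were chosen after seeing the data. The members and lists were chosen with earlier results of these data known. All members are described, of other pathway genes those past the threshold in hippocampus may be named with counts for each list, and the 3 genes most like each member come from group-centred Pearson r. Other genes named as at or near 0, or as examples of a list, were chosen after their values were seen.

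The tests were checked on simulated counts with 100 genes changed 1.5-fold and 100 changed 3-fold. In the young plasma design (13478 genes) limma recovered 78 and 100 of them, and in the young platelet design (13505 genes) 84 and 100. In the microglia design (10709 genes) it recovered 4 of 91 and 33 of 96. Intervals cover the spread between libraries, reads carry no molecular identifiers, and counting errors cover counting only. Coordinates and promoters are from RefSeq on GRCm38.p6, exon lengths from GENCODE. Figures were drawn with matplotlib.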

Additional observations from a re-analysis of the deposited data

Results flagged for a closer look

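In hippocampus 2 of 24 sets of values of 1 gene in 1 group had a single library far from the rest, against about 5% by chance, and both were Bdnf. Saline mouse 7152 read 789 normalized counts, and the next highest saline mouse 548. Young platelet mouse 7595 read 683, and the next highest 528. In microglia of PF4-treated mice 4 sets had such a library. Most libraries there were at or near 0, so that any single higher value stands apart, and the rate by chance does not apply. In PF4 library 2, Bdnf read 91.6 with the others at 0, Lgi1 read 162 with the next at 17.2, and Ngfr read 849 with the next at 1.52. Ntrk3 read 0.761 in PF4 library 1, the worth of 1 read, with the others at 0.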

How the results depend on the processing

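Of 556 log2 differences of single members recomputed under an alternative, 503 kept their direction and side of the threshold, 39 changed sign, 8 lost the call and 6 gained it, and no called difference changed sign. Genes past the threshold were 456 for young plasma (297 to 617 with a library left out), 527 for young platelets (344 to 870), 261 for young platelets against young plasma (208 to 444, and 473 with no filter) and 44 in microglia (22 to 123, and 179 by DESeq2). Members called were 1 to 2, 1 to 3 and 0 to 1 in the hippocampal comparisons with a library left out. Without the 5 displaced libraries, 300 genes and 1 member were called for young plasma and 0 members for young platelets. By the exact permutation test the young plasma call for Ngfr (0.60) was lost. The calls lost or gained for Ngfr, Lgi1, Ntrk3 and Ntf3 stand beside those results, and the cause was not tested.

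Signs changed only for members without a call. By edgeR, Ntrk2 with young plasma was 0.000871 and Ngfr for young platelets against young plasma -0.0245, and by DESeq2 the Ngfr value was -0.0185. Without the 5 displaced libraries, Ntf3 and Ntrk2 with young plasma were 0.0365 and 0.0355, Sort1 with young platelets was -0.14, and for young platelets against young plasma Ngfr was -0.16, Sort1 -0.0350 and Tmem108 0.0857. With a library left out, young plasma gave -0.22 to 0.0514 for Ntf3, -0.0716 to 0.0457 for Ntrk2 and -0.20 to 0.0255 for Sort1, and young platelets -0.0712 to 0.11 for Sort1. Young platelets against young plasma gave -0.0545 to 0.11 for Bdnf, -0.0990 to 0.0183 for Ntrk2, -0.16 to 0.17 for Ngfr and -0.0668 to 0.0688 for Tmem108. In microglia the ranges were -0.45 to 1.85 for Ntrk2, -0.00986 to 0.58 for Sort1 and -1.86 to 0.68 for Lgi1.

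Same-numbered microglia libraries correlated at 0.14, 0.06 and 0.03 in their deviations, so the numbers were not taken to pair them. With the replicate block 29 genes were called, and Lgi1 was 0.68. Depth limits Ngfr and Ntf3, at 46 to 135 and 38 to 130 reads.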
